A study of Mus musculus with 24 samples.

Results

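The microRNA described here is mouse miR-185 (mmu-miR-185), measured by 1 TaqMan assay of the 584 microRNA assays on 2 real-time PCR cards. It was chosen from the deposited values themselves, because its level there stood higher in both of the transgenic lines of the study, so the differences between each line and its controls are given below as descriptions and not as tests. The soleus, a slow-twitch postural muscle of the calf, came from 12 male mice, each 12 weeks old, in 4 groups of 3. MCK-PPARa mice carry a transgene that overexpresses PPARα in muscle, and NTGa are their non-transgenic littermates. MCK-PPARb mice carry the corresponding PPARβ transgene, and NTGb are their own non-transgenic littermates. The labels name muscle-specific overexpression, in the PPARa as in the PPARb line, and describe no agent given to any group. MCK denotes the muscle creatine kinase promoter, which is active in striated muscle fibres, whereas RNA of the whole muscle also holds vessels, blood, nerve and connective tissue.

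A microRNA is a short RNA that pairs with messenger RNAs, mainly through its bases 2 to 8 (the seed), and lowers their translation and stability. miR-185 is best known outside muscle: in liver cells it lowers the sterol-regulatory SREBP genes and the HDL receptor SR-BI, and in tumour cells it lowers the small GTPases RhoA and Cdc42. PPARα and PPARβ are ligand-activated transcription factors of the nuclear receptor family, with target genes in fatty acid uptake and oxidation. In the RefSeq table of GRCm38.p6, Mir185 lies on the minus strand at chr16:18327401-18327465, within the bounds of the protein-coding gene Tango2. The nearest microRNA genes of that chromosome with an assay on the cards are Mir301b, 1202.9 kb away, and Mir130b, 1203.3 kb away.

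The precursor of miR-185 is shown because it gives rise to both mature arms. Its letters are RefSeq's, 5′ to 3′, with the arm mmu-miR-185-3p in capitals. The assay name in the deposited file carries no arm; by the usage applied to the plain names below, it stands for the other arm, mmu-miR-185-5p, so the capitals do not mark the arm taken as measured.
Mir185 hairpin: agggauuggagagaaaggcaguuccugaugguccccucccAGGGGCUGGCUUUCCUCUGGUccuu
Of the microRNAs compared with it below, 5 are shown with their mature sequences from the same table and the seed in capitals. 4 of them had groups that did not overlap in both lines, and miR-24-2 was among the most like miR-185 over the animals. They are shown so that their seeds can be read side by side.
mmu-miR-194-5p: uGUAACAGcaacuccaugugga
mmu-miR-192-5p: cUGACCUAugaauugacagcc
mmu-let-7d-5p: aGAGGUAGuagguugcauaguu
mmu-miR-27a-3p: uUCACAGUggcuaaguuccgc
mmu-miR-24-2-5p: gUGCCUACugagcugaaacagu
These 5 seeds all differ from each other. miR-27a and miR-24-2 lie close together on the plus strand, at chr8:84208727-84208747 and chr8:84208839-84208860. miR-192 lies at chr19:6264857-6264877 on the plus strand, near one of the copies of miR-194, at chr19:6264658-6264679 (the other is at chr1:185313325-185313346, plus strand). let-7d lies at chr13:48536078-48536099 on the minus strand. The arm behind each older assay name (miR-24-2* for mmu-miR-24-2-5p, and the plain names for the others) was taken from common usage, since the files do not name arms.

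miR-185 had a cycle threshold (Ct) in all 12 animals, in 1 well per animal on card A, between 28.9 and 31.3. The Ct is the PCR cycle where the signal reaches a set brightness, and it falls as template increases. Among the 208 microRNAs detected in every animal at a Ct under 35, its mean Ct of 30.2 was 141st from the lowest. Ct values of different assays also carry the efficiency of each assay, so this place describes how late the signal came and not the order of molecule numbers. On card B, which has pairs of wells for many assays, 247 pairs with a mean Ct between 28 and 32 differed by a median of 0.304 Ct, 31.6% of them by more than 0.5 Ct and 6.88% by more than 1 Ct. The single well of miR-185 gives no such check of its own.

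In MCK-PPARa soleus, the Ct of miR-185 was 29.5, 29.3 and 29.4 in replicates 1, 2 and 3, against 30.0, 30.8 and 30.8 in NTGa. These were scaled to a level on the log2 scale, which is the average Ct over the 149 card A microRNAs that every animal showed, minus the Ct of miR-185. The level was -1.43, -1.29 and -1.54 in MCK-PPARa, against -2.18, -3.18 and -2.92 in NTGa. The MCK-PPARa animals lay within 0.245 of each other and all stood above every NTGa animal, with 0.643 between the nearest animals of the groups. The mean level was -1.42 ± 0.123 in MCK-PPARa and -2.76 ± 0.519 in NTGa (SD, n = 3 each). The log2 difference was 1.34 (SE 0.39), or 2.53-fold if template doubles in each cycle. Within NTGa, replicate 1 was the animal nearest to the transgenic mice, and without it the difference was 1.63.

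In MCK-PPARb soleus, the Ct of miR-185 was 28.9, 30.0 and 30.4, against 31.3, 30.8 and 31.1 in NTGb. Its level was -0.75, -2.01 and -2.26 in MCK-PPARb, against -2.95, -3.23 and -2.68 in NTGb. All 3 transgenic animals again stood above every control, with 0.42 between the nearest animals, but here it was the transgenic group that spread widely. MCK-PPARb replicate 1 had the highest level of the 12 animals, 5.58 times that of the lowest, NTGb replicate 2. The mean level was -1.67 ± 0.809 in MCK-PPARb and -2.95 ± 0.275 in NTGb (SD, n = 3 each). The log2 difference was 1.28 (SE 0.39), or 2.43-fold. The SE is the same in both lines because it uses the spread pooled over the 4 groups. With only the compared groups fitted, it was 0.29 in MCK-PPARa and 0.43 in MCK-PPARb. Without MCK-PPARb replicate 1, the difference in MCK-PPARb was 0.82. That animal therefore carried a large share of the size of the difference.

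**Figure D1:**
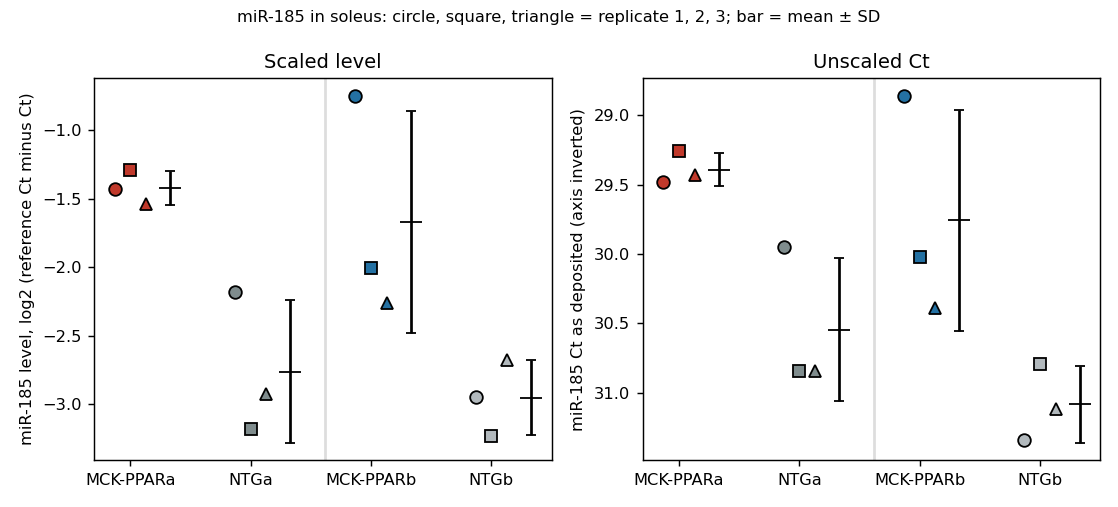
The level of miR-185 on the log2 scale (left) and its Ct as deposited (right, axis inverted so that more template is higher) in the 12 animals, with the mean ± SD of each group of 3 beside the points. MCK-PPARa and MCK-PPARb animals lie above their own controls on both scales, MCK-PPARa within a range of 0.245 and MCK-PPARb over a range of 1.51.

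The order of the group means was MCK-PPARa, MCK-PPARb, NTGa and NTGb, from high to low. The transgenic groups overlapped each other, at a log2 difference of 0.25 for MCK-PPARa minus MCK-PPARb (SE 0.39, 95% interval -0.62 to 1.12). The control groups also overlapped, at 0.19 for NTGa minus NTGb (SE 0.39, 95% interval -0.68 to 1.06). These neighbours in the order did not differ beyond their spread, and the widths of the intervals leave room for differences of about the size of 1 PCR cycle. All 6 controls stood at or below -2.18, and 5 of 6 transgenic animals above that value. The exception was MCK-PPARb replicate 3, at -2.26, which was below NTGa replicate 1 of the other line.

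The mean of the 2 transgene effects was a log2 difference of 1.31 (SE 0.28), or 2.48-fold. The effect in MCK-PPARa minus that in MCK-PPARb was 0.06 (SE 0.55, 95% interval -1.16 to 1.29). An interval of that width does not show that the effects were alike. Each line was set against separate control animals, so the values of the lines share no animals. Set against the controls of the other line, MCK-PPARa differed by 1.53 and MCK-PPARb by 1.09, and against all 6 controls by 1.44 and 1.19.

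The fit over all 268 tested assays (limma, adjusted p under 0.05) called 2.24% of them in MCK-PPARa against NTGa (1.12% higher) and 0% in MCK-PPARb against NTGb, and miR-185 was called in neither line. At an unadjusted p under 0.05 the same fit counted 44 assays (16.4%) in MCK-PPARa and 23 (8.58%) in MCK-PPARb. For the mean of the effects it called 6 assays (2.24%), of which 4 (1.49%) were higher, with miR-185 among these, and 37 (13.8%) had an unadjusted p under 0.05. Because miR-185 was chosen for being high in both lines, that call is not evidence for it. It was also lost without any 1 of 9 of the 12 animals, and was kept without NTGa replicate 1, MCK-PPARb replicate 1 or MCK-PPARb replicate 3.

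Groups that did not overlap were found for 25.7% of assays in MCK-PPARa and for 15.3% in MCK-PPARb, and with the transgenic one higher for 14.9% and 10.8%. Both held for 6 assays, or 2.24% of the 268: miR-185, miR-194, miR-192, let-7d, miR-135a and miR-27a. miR-185 was the 1 assay with a log2 difference over 1 in both lines (0.373% of assays). In MCK-PPARa alone 11 assays had a larger positive difference, in MCK-PPARb alone 7, and for the mean of both 5, so miR-185 led in neither line by itself. Ranked by the smaller of the 2 differences, the assays after miR-185 were miR-221 (2.22 in MCK-PPARa and 0.98 in MCK-PPARb), miR-297a* (1.13 and 0.69), miR-699 (0.69 and 1.95) and miR-339-5p (2.23 and 0.66). None of those 4 was called in either line or for the mean. miR-221, miR-297a* and miR-699 were each detected in 11 of 12 animals. The median of all 268 assays was 0.12 in MCK-PPARa, 0.02 in MCK-PPARb and 0.05 for the mean.

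**Figure D2:**
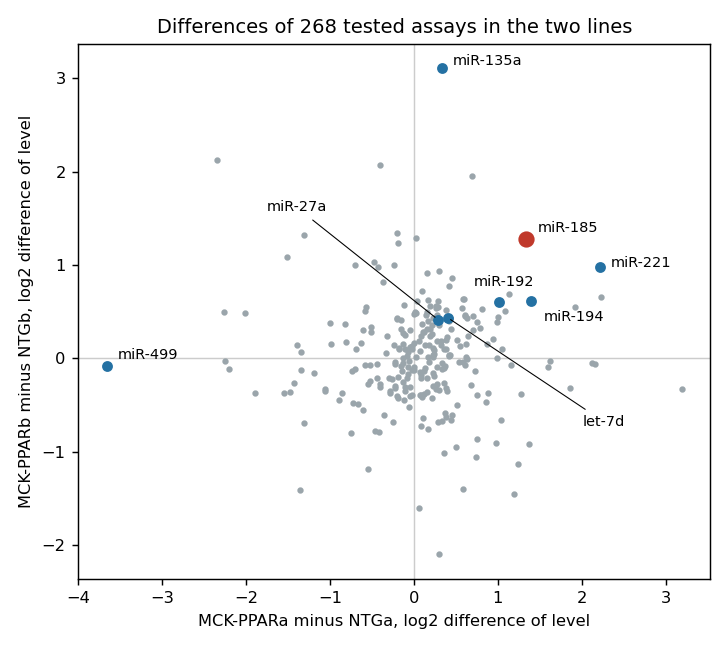
Log2 difference of the level in MCK-PPARa minus NTGa (horizontal) and in MCK-PPARb minus NTGb (vertical) for each of 268 tested assays, 1 point per assay, with miR-185 in red and 7 others named in blue. miR-185, at 1.34 and 1.28, is the 1 point above 1 on both axes, while miR-135a, at 0.34 and 3.11, and miR-499, at -3.66 and -0.08, lie far out along 1 axis.

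miR-194 and miR-192 had the larger value in MCK-PPARa, where both were also called (1.40, limma adjusted p = 0.00688, and 1.01, adjusted p = 0.0425). Both are known chiefly from epithelia of the gut and kidney and from liver. The level of miR-194 was -0.70, -0.55 and -0.86 in MCK-PPARa, against -2.17, -1.81 and -2.33 in NTGa, and -1.03, -1.001 and -1.60 in MCK-PPARb, against -1.83, -1.71 and -1.95 in NTGb. All 6 transgenic animals stood above all 6 controls for this microRNA. That did not hold for miR-192, whose mean level was -0.78 in NTGa controls and -0.86 in MCK-PPARb. For miR-192, NTGa minus NTGb was 0.68, beside 0.60 for MCK-PPARb minus NTGb. The mean effect of miR-194 was 1.01 (SE 0.17, limma adjusted p = 0.00788), and that of miR-192 was 0.81 (SE 0.16, adjusted p = 0.0207). let-7d and miR-27a had smaller mean effects, 0.42 (SE 0.13) and 0.35 (SE 0.13), which were not called (adjusted p = 0.209 and 0.269).

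The choice of reference bears on any level from PCR, so miR-185 was set against each of the other 148 microRNAs detected in all 12 animals on card A, 1 at a time. The difference between MCK-PPARa and NTGa was positive with 145 of the 148 references and that between MCK-PPARb and NTGb also with 145, with 142 positive for both. The median over references was 1.25 in MCK-PPARa and 1.30 in MCK-PPARb. The middle 90% of references gave 0.40 to 2.61 in MCK-PPARa and 0.58 to 2.08 in MCK-PPARb. The 3 references that gave a negative value in MCK-PPARa were miR-339-5p (-0.89), miR-194 (-0.06) and miR-148b (-0.03), and in MCK-PPARb they were miR-135b (-0.85), miR-98 (-0.06) and miR-190 (-0.01). The groups stayed apart, with the transgenic one higher, for 107 references in MCK-PPARa, 106 in MCK-PPARb and 83 in both. Every value rests on the same miR-185 wells and also carries the well error of its reference. Each difference equals that of miR-185 minus that of the reference, so the counts of signs restate where miR-185 stood among these microRNAs. Because miR-185 was chosen for standing higher in both lines, these counts are descriptions and not a separate check.

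**Figure D3:**
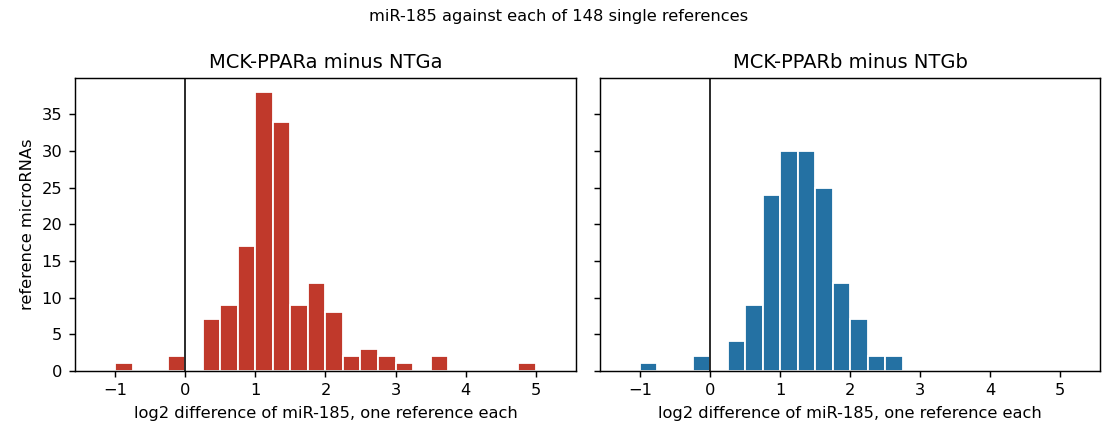
Number of reference microRNAs (vertical) by the log2 difference of miR-185 that each gives on its own (horizontal), for MCK-PPARa minus NTGa (left) and MCK-PPARb minus NTGb (right). Of 148 references, 145 lie above 0 in each panel, with medians of 1.25 and 1.30. Each value equals the difference of miR-185 minus that of the reference.

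The endogenous small RNAs on card A moved less than miR-185 between the groups, but not all in 1 direction. In MCK-PPARa minus NTGa, the Ct of U6 snRNA differed by -0.00274, that of snoRNA202 by 0.311 and that of snoRNA135 by 0.0562. In MCK-PPARb minus NTGb, these differed by 0.267, 0.208 and 0.498. U87 differed by -0.210 in MCK-PPARa and 0.0242 in MCK-PPARb, and Y1 by 0.347 and -0.724. With U6 as the reference, miR-185 differed by 1.15 in MCK-PPARa and 1.59 in MCK-PPARb. With snoRNA202 the values were 1.47 and 1.53, and with snoRNA135 they were 1.21 and 1.82. The Ct as deposited, with no scaling, gave 1.16 and 1.33, and the transgenic groups stood apart from their controls there too. The raw Ct gap between the nearest animals was 0.468 in MCK-PPARa and 0.403 in MCK-PPARb, which is within the difference seen between many paired wells of like Ct, since 31.6% of these differed by more than 0.5 Ct.

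**Figure D4:**
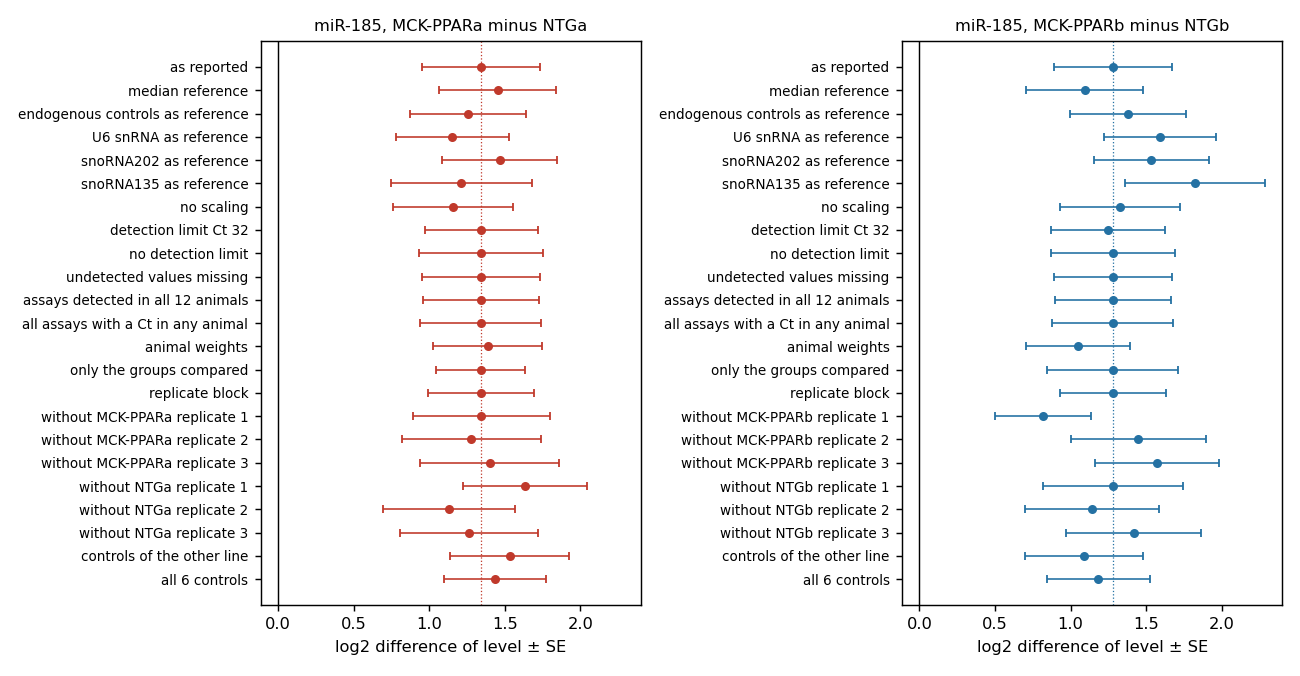
Log2 difference of miR-185 ± SE (horizontal) in MCK-PPARa minus NTGa (left) and MCK-PPARb minus NTGb (right), as reported (dotted line) and under each alternative processing, 1 per line. The values stay between 1.13 and 1.63 on the left and between 0.82 and 1.82 on the right, the lowest of them without MCK-PPARb replicate 1 and the highest with snoRNA135 as reference.

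Some animals stood apart over all microRNAs. MCK-PPARa replicate 1 correlated least with the others (median r of 0.943 over pairs, where the remaining animals had 0.965 to 0.981), and without it the difference of miR-185 in MCK-PPARa was 1.35. NTGb replicate 2 had 296 microRNAs detected, where the other animals had 248 to 283, and without it the difference in MCK-PPARb was 1.14. Within groups, the level of miR-185 had a residual SD of 0.50 on the log2 scale. Among 55 other microRNAs detected in all animals with a mean Ct between 29 and 31 the median SD was 0.46, with a range of 0.16 to 1.35, and 33 of them had a smaller SD than miR-185.

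The microRNAs whose level was most like that of miR-185 over the 12 animals were miR-23b (Pearson r = 0.86, Spearman rho = 0.80), miR-24-2* (0.85 and 0.75), let-7d (0.84 and 0.80), miR-194 (0.79 and 0.67) and miR-27a (0.77 and 0.77). They were ranked among 207 other microRNAs detected in all 12 animals, for which r ran from -0.85 to 0.86 with a median of 0.01. miR-23b, miR-24-2* and miR-27a come from the miR-23-27-24 clusters, which are known for roles in vessels and muscle. Other assays of these clusters were less like miR-185, with r of 0.59 for miR-24, 0.51 for miR-27b, -0.05 for miR-27b* and -0.28 for miR-27a*. All values of an animal share its RNA and those of a card its run and reference (miR-24-2* was on card B), and r over all 12 animals includes the difference between transgenic and control groups. Taken as deviations from the group means, r was 0.88 for miR-23b, 0.82 for miR-24-2*, 0.82 for miR-103, 0.73 for miR-140 and 0.70 for miR-34a, the 5 highest. It was 0.58 for let-7d, 0.33 for miR-27a and 0.19 for miR-194. Over the 207 microRNAs, r of the deviations ran from -0.90 (miR-20a) to 0.88, with a median of 0.07. miR-23b and miR-24-2* thus stood at the upper end of a wide spread, whose value largest in size was negative. miR-194 followed miR-185 little within groups, while all of its transgenic animals stood above all controls.

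miR-23b shows how small a movement can give such a correlation. Its level was -0.41, -0.36 and -0.32 in MCK-PPARa, against -0.25, -0.73 and -0.65 in NTGa, and 0.02, -0.48 and -0.32 in MCK-PPARb, against -0.86, -1.11 and -0.70 in NTGb. NTGa replicate 1 was the highest of its group for both microRNAs, as was MCK-PPARb replicate 1 in its own. The log2 difference of miR-23b was 0.17 in MCK-PPARa and 0.63 in MCK-PPARb, and neither was called (limma adjusted p = 0.797 and 0.49). miR-24-2* averaged 2.58 ± 0.22 in MCK-PPARa, against 2.17 ± 0.32 in NTGa, which overlapped, and 2.94 ± 0.28 in MCK-PPARb, against 2.17 ± 0.15 in NTGb, which did not (SD, n = 3 each). let-7d averaged 1.40 ± 0.14 in MCK-PPARa, against 0.99 ± 0.11 in NTGa, and 1.49 ± 0.15 in MCK-PPARb, against 1.06 ± 0.16 in NTGb, with no overlap in either line. Without the 2 animals farthest from the median of miR-185, MCK-PPARb replicate 1 and NTGb replicate 2, r over the other 10 was 0.78 for miR-23b, 0.73 for miR-24-2*, 0.73 for let-7d, 0.85 for miR-194 and 0.86 for miR-27a. As deviations from the group means without those animals, r was 0.82 for miR-23b, 0.74 for miR-24-2*, 0.61 for miR-103, 0.85 for miR-140 and 0.38 for miR-34a. For the remaining 3 it moved far, to 0.14 for let-7d, 0.76 for miR-27a and -0.05 for miR-194.

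**Figure D5:**
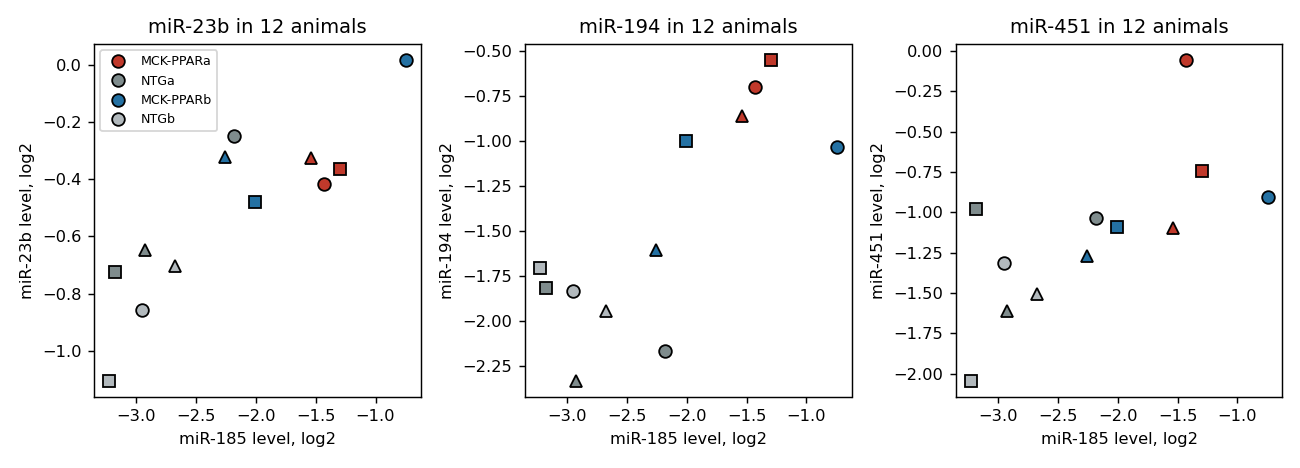
Level on the log2 scale of miR-23b (left), miR-194 (middle) and miR-451 (right) against that of miR-185 (horizontal), 1 point per animal, coloured by group, with circles, squares and triangles for replicates 1, 2 and 3. Over 12 animals r was 0.86 for miR-23b, 0.79 for miR-194 and 0.68 for miR-451.

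Whole muscle contains blood, and miR-185 is also found in blood cells. Of the erythroid markers, miR-451 was measured here and miR-144 was not. The level of miR-451 was -0.06, -0.74 and -1.09 in MCK-PPARa, against -1.03, -0.98 and -1.61 in NTGa, and these groups overlapped. It was -0.90, -1.09 and -1.27 in MCK-PPARb, against -1.31, -2.04 and -1.51 in NTGb, which did not overlap. Its differences of 0.58 (SE 0.31) in MCK-PPARa and 0.53 (SE 0.31) in MCK-PPARb were not called (limma adjusted p = 0.42 and 0.579). Both were smaller than the differences of miR-185, at 1.34 and 1.28. Over the 12 animals r with miR-185 was 0.68, as deviations from the group means it was 0.35, and without MCK-PPARb replicate 1 and NTGb replicate 2 these were 0.66 and 0.14. The part of blood in the level of miR-185 was not tested. In bulk tissue, a change in the number of cells of a type and a change of RNA per cell cannot be told apart.

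The leukocyte, endothelial, and smooth muscle and fibroblast markers gave no called member in either line. By the same fit, 2.24% of all assays were called in MCK-PPARa and 0% in MCK-PPARb. Of 6 leukocyte microRNAs 5 were tested, with a summed level of 32.9 to 42.3 in MCK-PPARa, against 32.3 to 40.2 in NTGa, and of 26.98 to 33.8 in MCK-PPARb, against 28.5 to 46.6 in NTGb, in units of the reference (2 to the power of the level). The remaining one, miR-142-5p, was detected in 7 of 12 animals. The 2 endothelial microRNAs, miR-126-3p and miR-126-5p, summed to 465 to 582 in MCK-PPARa, against 494 to 567 in NTGa, and to 367 to 567 in MCK-PPARb, against 324 to 691 in NTGb. The 4 tested of 5 smooth muscle and fibroblast microRNAs summed to 38.5 to 45.9 in MCK-PPARa, against 39.5 to 40.7 in NTGa, and to 31.98 to 37.0 in MCK-PPARb, against 32.7 to 34.2 in NTGb. Every pair of groups overlapped in these sums, which the most abundant members dominate. Among the single members, miR-142-3p (0.62), miR-126-3p (0.27) and miR-143 (0.07) had MCK-PPARa above NTGa without overlap, and miR-146a (-0.42) had MCK-PPARb below NTGb without overlap, where 25.7% and 15.3% of all assays did not overlap. The part of these cell types in the level of miR-185 was not tested. miR-122, which defines liver, had a Ct under 35 in 1 MCK-PPARb mouse and in no other. Of the muscle markers, miR-1, miR-133a, miR-133b, miR-206 and miR-499 were detected in all 12 animals, and miR-208b in 9, none of them MCK-PPARa.

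Of 22 microRNAs reported to act on cholesterol or fatty acid genes, 17 were tested and 0 were called in either line or for the mean by limma, where 2.24%, 0% and 2.24% of all assays were called in MCK-PPARa, in MCK-PPARb and for the mean. Their median log2 difference was 0.18 in MCK-PPARa and 0.12 in MCK-PPARb, beside 0.12 and 0.02 for all assays. The lowest p for the mean of the effects belonged to miR-27a (0.35, above), with miR-27b at 0.29 (SE 0.16), miR-378* at 0.29 (SE 0.16) and miR-106b at 0.24 (SE 0.16). Of these 17, miR-27a alone had an unadjusted p under 0.05 for the mean, which 13.8% of all assays had. miR-223, reported with miR-185 to lower SR-BI, was at 0.35 in MCK-PPARa and -0.11 in MCK-PPARb. miR-342-3p, reported with miR-185 to lower SREBP genes, was at 0.38 and -0.63, so both had opposite signs in the lines, and neither was called in either.

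Of 11 other microRNAs reported to lower RhoA or Cdc42, 8 were tested and 0 were called by limma in either line or for the mean, beside the same shares of all assays. Their median log2 difference was 0.04 in MCK-PPARa and -0.20 in MCK-PPARb, beside 0.12 and 0.02 for all assays. The lowest p for the mean belonged to miR-29c at -0.33 (SE 0.16), miR-29b at -0.17 (SE 0.20), miR-133b at 0.14 (SE 0.18) and miR-133a at -0.15 (SE 0.20), and none of the 8 had an unadjusted p under 0.05 for it. Of 8 muscle-enriched microRNAs 7 were tested. Of these miR-499, from the slow myosin gene Myh7b, fell in MCK-PPARa (log2 difference -3.66, SE 0.30, limma adjusted p = 3.94e-05) and for the mean of the effects (-1.87, adjusted p = 9.27e-04). It was at -0.08 in MCK-PPARb. The other 6 were not called in either line or for the mean, with miR-206 at 0.23, miR-486 at 0.20 and miR-133b at 0.14 for the mean. Of all assays, 2.24%, 0% and 2.24% were called in MCK-PPARa, in MCK-PPARb and for the mean. Some means join opposite signs: miR-486 was at 0.68 in MCK-PPARa and -0.28 in MCK-PPARb. miR-208b was at -1.31 and 1.32. It was undetected in MCK-PPARa, where its level was set to the floor of -6.56. The size of -1.31 therefore depends on that floor and was not measured. Mean effects of the chromosome neighbours miR-301b (-0.28, SE 0.32) and miR-130b (-0.17, SE 0.43) were negative and not called (adjusted p = 0.692 and 0.849).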

How the data were processed

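The authors deposited 1 Ct per well and card for 12 animals as 24 samples, not normalized, per the file headers; per the labels' protocols, TaqMan assays with a FAM label ran for 40 cycles. For threshold, baseline and software, the sources used here give nothing. All columns were matched to samples, with 0 left over. Repeat wells of 1 assay were averaged per card (empty wells at Ct 40 where another had a Ct). Levels on the log2 scale were the mean Ct of microRNAs detected (Ct under 35) in all 12 animals on the card (149 for A, 59 for B) minus Ct, with undetected values at a floor (-6.56 and -5.66). The 268 assays detected in all 3 animals of a group (180 on card A, 88 on card B) were fitted with limma 3.58.1 in R 4.3.3 over the 4 groups, with Benjamini-Hochberg adjustment. The fit was tested on simulated data. Depth has no meaning for Ct values. Precision was limited by 3 animals a group, and the labels call the replicates biological.

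The microRNA, the lists and the tests were chosen with earlier results of these data known. Named microRNAs were the 5 most like miR-185 over the animals and as deviations from the group means, the 5 with the largest smaller effect (miR-185 included), the nearest assayed microRNA genes, up to 4 of lowest p per list, and the assays whose groups did not overlap in both lines. miR-130b, the negative single references, miR-223, miR-342-3p and the soleus markers were named after their values were seen. Alternatives covered the reference, detection limit, filters, weights, controls, replicate number and each animal left out.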

Additional observations from a re-analysis of the deposited data

Results flagged for a closer look

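miR-499, named among the muscle-enriched microRNAs, differed between the transgene effects. The effect in MCK-PPARa minus that in MCK-PPARb was -3.58 (SE 0.43, limma adjusted p = 0.00141), with -3.66 in MCK-PPARa and -0.08 in MCK-PPARb. miR-185 showed no such difference past the threshold.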

How the results depend on the processing

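The difference of miR-185 kept its sign in both lines under the alternatives given here; among the single microRNA references in the report, 3 turned it in MCK-PPARa and 3 in MCK-PPARb. Leaving out 1 animal gave 1.13 to 1.63 in MCK-PPARa, 0.82 to 1.57 in MCK-PPARb and 1.08 to 1.46 for the mean of the effects; the other alternatives gave 1.15 to 1.53, 1.05 to 1.82 and 1.22 to 1.52. The sign of the small difference between the effects was not stable (-0.23 to 0.52 with 1 animal left out, -0.61 to 0.36 otherwise), nor was that of NTGa minus NTGb (-0.10 to 0.40, and -0.10 to 0.74). With snoRNA135 as reference, MCK-PPARb differed by 1.82 and the difference of the effects was -0.61, while 3 assays were called in MCK-PPARa and 1 in MCK-PPARb. With U6 snRNA, NTGa minus NTGb was 0.74. Called assays numbered 3 in MCK-PPARa with undetected values missing, 1 in MCK-PPARb with animal weights, and 1 for the mean with no scaling. With 1 animal left out the called assays were 4 to 7 in MCK-PPARa, 0 to 1 in MCK-PPARb (1 without NTGb replicate 2) and 3 to 8 for the mean (3 without NTGa replicate 2 and without NTGb replicate 3). The cause of these changes was not tested. miR-185 was called for the mean in 10 of 13 alternatives that kept all animals, the exceptions being no scaling, no detection limit and all assays with a Ct; without 1 animal it was called in 3 of 12. It was called in neither line under any of the 22 alternatives run for each. Because miR-185 was chosen for being high in both lines, these counts are not evidence for it. Same-numbered animals did not deviate together in every pair (r from -0.19 to 0.37), so the numbers were not taken to pair them. With the replicate block the differences of miR-185 stayed at 1.34 and 1.28 (SE 0.35 each), and 9, 0 and 6 assays were called in MCK-PPARa, MCK-PPARb and for the mean.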
